A study of Mus musculus with 6 samples.

Results

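The genes described here are 7 Smad genes (Smad1 to Smad7) and the Id genes Id1, Id2 and Id3, which are targets of bone morphogenetic protein (BMP) signaling. They were taken by symbol and are 10 of the 31053 gene identifiers counted in cells sorted as quiescent muscle stem cells (qMuSCs). These cells were compared with and without type 2 deiodinase (D2, gene Dio2), the enzyme that activates thyroid hormone inside cells. RNA was measured in 3 WT mice, named c124, c129 and c130, and in 3 mice named fl125, fl126 and fl128 that make up the cD2KO group, each giving its own library. WT mice were Pax7nGFP/+;Pax7+/+;Dio2Fl/Fl and cD2KO mice were Pax7nGFP/+;Pax7-CreERT2/+;Dio2Fl/Fl. All 6 mice were treated with tamoxifen, were 3 to 4 months old and carried the floxed Dio2 alleles and the nuclear GFP reporter, and the cells were sorted by FACS from resting hindlimb muscle for that reporter. Since the Cre allele was present only in cD2KO mice, an effect of the Cre and an effect of the deletion cannot be told apart. Recombination is limited to cells with Pax7 activity.

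BMPs and TGF-β bind receptor kinases that phosphorylate receptor-regulated Smads, Smad1 and Smad5 on the BMP side and Smad2 and Smad3 on the TGF-β and activin side. These join the common partner Smad4, enter the nucleus and act on target genes, while Smad6 and Smad7 are inhibitory Smads that are themselves induced by the pathway and damp it. Id proteins lack a DNA-binding region and sequester E proteins, the partners of myogenic bHLH factors such as MyoD and Myf5, and in muscle stem cells BMP signaling and Id genes are known for holding back differentiation.

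Among these genes, Id1 and Id3 were lower in cD2KO qMuSCs, by 1.49-fold and 1.44-fold, and Smad4 was higher by 1.52-fold, each at an unadjusted p under 0.05 in edgeR's quasi-likelihood test. The other 7 did not pass that threshold. All 10 passed the expression minimum, a mean of more than 10 normalized counts. Thus 3 of 10 were past the threshold beside 12% of the 11633 genes tested, with 1 higher beside 5.34% and 2 lower beside 6.62%. None had an adjusted p (Benjamini-Hochberg over all genes tested) under 0.05, a level that 0.0086% of all genes reached in edgeR. In none of the 10 were the groups separated, that is, without overlap of the mice of both groups, whereas 18.1% of the genes tested separated them, 8.05% with cD2KO higher and 10% with cD2KO lower. The median log2 fold change of the 10 genes was -0.23 beside -0.020 for all genes tested, with 4 above 0 and 6 below.

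Libraries held 2184073 to 3897787 counts, and 3 counts corresponded to 0.768 to 1.36 CPM, the count scaled to the effective library size. Dio2, the targeted gene, had 21, 5 and 10 counts in the WT mice and 15, 5 and 1 in fl125, fl126 and fl128, which is below the expression minimum. In CPM Dio2 was highest, at 6.79 CPM, in the library labelled fl125, against its label. Whether the reads lie in the deleted part of the gene cannot be told from a count per gene. The sorted cells expressed the stem cell marker Pax7 at 212 to 687 CPM, and the libraries also held markers of other cells that moved with genotype. Summed endothelial markers were 659 to 958 CPM in WT and 497 to 632 CPM in cD2KO, summed immune markers were 5549 to 9868 CPM in WT and 264, 3169 and 3817 CPM in fl125, fl126 and fl128, and summed mural markers were 7286 to 11764 CPM in WT and 15032 to 21651 CPM in cD2KO. The library labelled fl125 therefore stood apart in immune markers as well, and the results past the threshold are given with and without it. Without it, 15.4% of 11769 genes tested were past the unadjusted threshold and 2.49% had an adjusted p under 0.05 in edgeR. In sorted bulk RNA, fewer cells of a type and less RNA per cell cannot be told apart.

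Id3 (ENSMUSG00000007872; GRCm38, chromosome 4, 136143497 to 136145755, plus strand) was measured at 206, 308 and 324 CPM in c124, c129 and c130 and at 184, 207 and 190 CPM in fl125, fl126 and fl128. The cD2KO mice lay within a narrow band, and of the WT mice c129 and c130 lay well above it, whereas c124 lay at its upper edge, just below fl126. Mean levels were 279 ± 64.3 CPM in WT and 194 ± 11.8 CPM in cD2KO (mean ± SD, n = 3 mice in both). The log2 fold change was -0.53 (SE 0.21, 95% interval -0.98 to -0.073), with p = 0.0260 and adjusted p = 0.354 in edgeR's quasi-likelihood test and p = 0.2 in a two-sided exact permutation test on the CPM. With 3 mice against 3, the smallest p that the permutation test can give is 0.1.

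Id1 (ENSMUSG00000042745; GRCm38, chromosome 2, 152736251 to 152737410, plus strand) had a like spread over the mice. Its levels were 89.1, 171 and 155 CPM in c124, c129 and c130 and 86.9, 96.1 and 93.6 CPM in the cD2KO mice. Again c129 and c130 were above all cD2KO mice and c124 was among them. The means were 138 ± 43.2 CPM in WT and 92.2 ± 4.73 CPM in cD2KO (mean ± SD, n = 3 mice in both), and the log2 fold change was -0.58 (SE 0.24, 95% interval -1.09 to -0.070), with p = 0.0286 and adjusted p = 0.361 in edgeR's quasi-likelihood test and p = 0.3 in the exact permutation test. The ratio of Id1 to Id3 counts within a mouse ranged only from 0.433 to 0.554 over the 6 mice, overlapping between the genotypes. This ratio was chosen after the values were seen and was not tested.

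The calls of both genes depended on which mice were included. Without c124 the log2 fold change was -0.71 for Id3, with adjusted p = 0.180 in edgeR's quasi-likelihood test, and -0.82 for Id1, with adjusted p = 0.124, and both stayed past the threshold. Leaving out any other mouse took both genes over the threshold of 0.05. Without the library labelled fl125, the log2 fold change was -0.45 for Id3 (adjusted p = 0.336) and -0.50 for Id1 (adjusted p = 0.364) in edgeR. The smallest difference among these fits was -0.38 for each gene, without c130 for Id3 and without c129 for Id1, and no direction changed.

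Id2 (ENSMUSG00000020644; GRCm38, chromosome 12, 25093799 to 25097140, minus strand) was measured at 205, 183 and 314 CPM in c124, c129 and c130 and at 213, 179 and 193 CPM in fl125, fl126 and fl128. Only c130 stood above the rest, and the other 5 mice of both genotypes were mixed. Between the groups Id2 differed by -0.26 on the log2 scale (95% interval -0.74 to 0.22), with adjusted p = 0.710 in edgeR, an interval that holds folds from 0.597 to 1.16. Without c130 it was 0.031, with the sign turned.

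Id4, the fourth family gene and not among the 10, was measured at 64.3, 58.0 and 81.3 CPM in WT and at 59.3, 51.6 and 38.0 CPM in cD2KO. Its highest cD2KO mouse, fl125, lay above the lowest WT mouse. Its log2 fold change was -0.45 (95% interval -0.96 to 0.052), with adjusted p = 0.481 in edgeR's quasi-likelihood test, and did not pass the threshold. Without the library labelled fl125 it was -0.56 and passed, with adjusted p = 0.276 in the same test. Exons of Id4 overlap antisense transcripts in the annotation, and the use of strand in counting is not given in the sources used here.

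**Figure D1:**
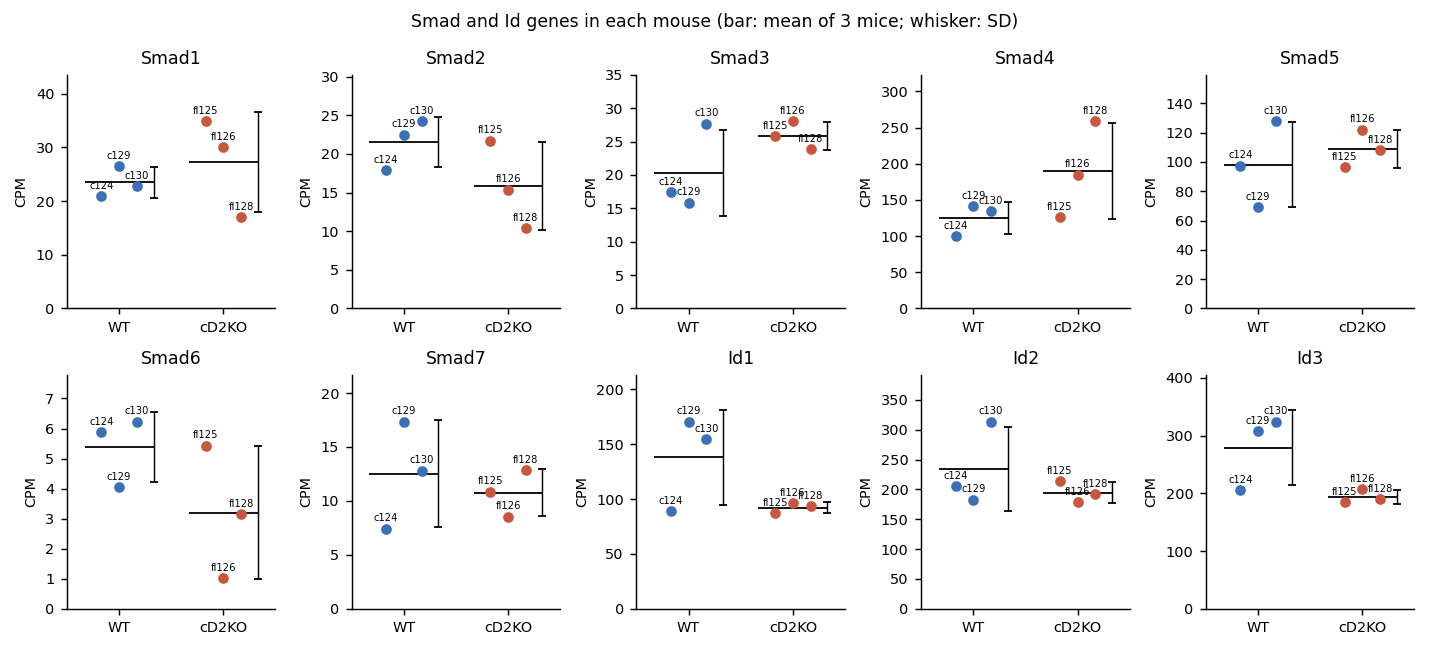
CPM of each of the 10 genes in each mouse (points, named), by genotype, with the mean of 3 mice (bar) and SD (whisker); each panel has its own axis from 0. In Id1 and Id3 the cD2KO mice lie close together and c124 lies beside them, and in Smad4 the cD2KO mice spread from 126 to 259 CPM.

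Sequences near start sites are shown because Id genes are known targets of the pathway. RefSeq windows (GRCm38.p6, from 250 bases before to 50 bases after a start site) were used for Smad1, Smad3, Smad5, Smad6, Id2 and Id3, 6 of the 10 genes, and for Smad9 and Id4. Id1, Smad2, Smad4 and Smad7 were not searched. The windows used were searched on both strands for GGCGCC, a GC-rich site used by BMP-activated Smads, for the Smad-binding letters GTCT and their palindrome GTCTAGAC (whose matches also hold GTCT), and for AGGTCA, the half-site of thyroid hormone receptors. Over all 32817 windows, GGCGCC was found in 11.9%, GTCTAGAC in 0.213%, GTCT in 88% and AGGTCA in 16.3%. Within these windows GGCGCC was held by Id2, Id4, Smad5 and Smad9, GTCT by Id2, Id3, Smad3, Smad5, Smad6 and Smad9, and GTCTAGAC by Smad6, while AGGTCA was found in none of the 10 windows of these 8 genes. Distances below are counted from the RefSeq start of the window. For Id3 and Id2 that start lies inside the gene span given above, and so do the sites printed for them. The capitals below mark the match, each sequence is given 5′ to 3′ on the gene's strand, and a match is a description of letters and not a binding site:
Id3, chr4:136143643-136143672, plus strand, 166 bases before the start: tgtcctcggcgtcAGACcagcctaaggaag
Id3, chr4:136143741-136143770, plus strand, 68 bases before the start: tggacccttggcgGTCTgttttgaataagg
Id2, chr12:25096306-25096335, minus strand, 231 bases before the start: tcaggccccctgGGCGCCcagcgcacactg
Id4, chr13:48260956-48260985, plus strand, 148 bases before the start: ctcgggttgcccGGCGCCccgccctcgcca
Smad6, chr9:64022045-64022074, minus strand, across the start: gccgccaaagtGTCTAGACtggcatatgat

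Smad4, the shared partner of both branches (ENSMUSG00000024515; GRCm38, chromosome 18, 73639009 to 73703780, minus strand), was measured at 100.4, 141 and 135 CPM in c124, c129 and c130 and at 126, 185 and 259 CPM in fl125, fl126 and fl128. Mice fl126 and fl128 were above all WT mice, and the library labelled fl125 lay inside the WT range. The means were 125 ± 22.0 CPM in WT and 190 ± 66.6 CPM in cD2KO (mean ± SD, n = 3 mice in both). The log2 fold change was 0.60 (SE 0.25, 95% interval 0.057 to 1.15), with p = 0.0329 and adjusted p = 0.377 in edgeR's quasi-likelihood test and p = 0.3 in the exact permutation test. Without the library labelled fl125 it was 0.87, with adjusted p = 0.0443 in edgeR, a fit in which 293 genes had an adjusted p under 0.05 beside 1 with all mice, and without fl128, the highest mouse, it was 0.31, with adjusted p = 0.751. Of the 6 fits that leave out a mouse, those without c129 and without fl125 kept an unadjusted p under 0.05.

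**Figure D2:**
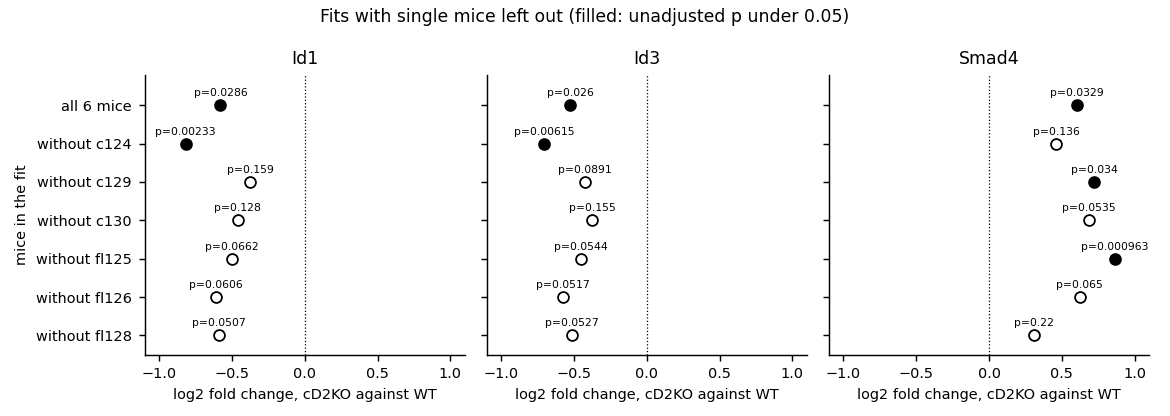
Log2 fold changes (cD2KO against WT, x axis) of Id1, Id3 and Smad4 in the fit with all 6 mice and in fits that leave out a mouse (y axis), with unadjusted edgeR p printed and filled points for p under 0.05. Id1 and Id3 stay below 0 and Smad4 above 0 in each fit, and most fits without a mouse have open points.

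On the BMP side, Smad1 (ENSMUSG00000031681; GRCm38, chromosome 8, 79338395 to 79399518, minus strand) was measured at 21.0, 26.6 and 22.8 CPM in c124, c129 and c130 and at 34.9, 30.1 and 17.0 CPM in fl125, fl126 and fl128. The cD2KO mice thus lay on both sides of the WT range. Smad1 had a log2 fold change of 0.21 (95% interval -0.46 to 0.89), with adjusted p = 0.860 in edgeR. Smad5 (ENSMUSG00000021540; GRCm38, chromosome 13, 56703010 to 56742377, plus strand) was more abundant in CPM, at 97.6, 69.4 and 128 CPM in WT and 96.5, 122 and 108 CPM in cD2KO, and all cD2KO mice lay within the WT range. Its log2 fold change was 0.15 (95% interval -0.35 to 0.65), with adjusted p = 0.867 in edgeR, and turned to -0.024 without c129, the lowest mouse. Exons of Smad5 overlap Gm27301 on the same strand, with 0.679% of its 50-base words shared.

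On the TGF-β side, Smad2 (ENSMUSG00000024563; GRCm38, chromosome 18, 76241580 to 76310963, plus strand) was measured at 17.9, 22.5 and 24.2 CPM in WT and 21.7, 15.4 and 10.4 CPM in fl125, fl126 and fl128. Mice fl126 and fl128 were below all WT mice and the library labelled fl125 was among them. Smad2 had a log2 fold change of -0.45 (95% interval -1.19 to 0.28), with adjusted p = 0.659 in edgeR, and was -0.70 without the library labelled fl125, with adjusted p = 0.373. Smad3 (ENSMUSG00000032402; GRCm38, chromosome 9, 63646767 to 63757994, minus strand) was measured at 17.4, 15.9 and 27.7 CPM in WT and 25.8, 28.0 and 23.9 CPM in cD2KO. Its log2 fold change was 0.35 (95% interval -0.31 to 1.01), with adjusted p = 0.720 in edgeR, and c130 was as high as the cD2KO mice.

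Neither Smad2 nor Smad3 passed the threshold, but their point estimates had opposite signs. Within a mouse, the ratio of Smad2 to Smad3 counts was 1.03, 1.42 and 0.875 in WT and 0.842, 0.549 and 0.434 in cD2KO, with the groups just separated. The ratio was chosen after the values were seen and was not tested. Ratios were also computed for Id1 to Id3, Id2 to Id3, Id1 to Id2, Smad1 to Smad5, Smad4 to Smad5 and Smad6 to Smad7. In each of these the groups overlapped. A share of separated ratios over all pairs of genes was not computed. The counts behind it are low, 33 to 70 for Smad2 and 43 to 82 for Smad3 per library.

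The inhibitory Smads were the least abundant of the 10 in CPM. Smad6 (ENSMUSG00000036867; GRCm38, chromosome 9, 63953076 to 64022059, minus strand) had 23, 11 and 18 counts in WT and 12, 3 and 10 in fl125, fl126 and fl128, or 5.89, 4.06 and 6.23 CPM and 5.43, 1.03 and 3.14 CPM. Mice fl126 and fl128 were below all WT mice, and the library labelled fl125 was not. Its log2 fold change was -0.78 (SE 0.68, 95% interval -2.24 to 0.67), with adjusted p = 0.718 in edgeR. Folds from 0.212 to 1.60 lie within the interval, so neither a difference nor its absence could be shown. Counting error alone gives a coefficient of variation of 27.9% for Smad6, beside 3.78% for Id3. Between mice, counting error included, that of Smad6 was 21.6% in WT and 68.9% in cD2KO.

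Smad7 (ENSMUSG00000025880; GRCm38, chromosome 18, 75367529 to 75395935, plus strand) had 24 to 47 counts in each library. Its levels were 7.43, 17.4 and 12.8 CPM in WT and 10.9, 8.55 and 12.9 CPM in cD2KO, all cD2KO mice lying within the WT range. Smad7 had a log2 fold change of -0.21 (95% interval -1.11 to 0.70), with adjusted p = 0.905 in edgeR, and without c129 it was 0.12. Smad9, the remaining BMP-side Smad, was barely counted, with 2, 1 and 0 counts in WT and 0 in each cD2KO mouse, and was not tested.

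**Figure D3:**
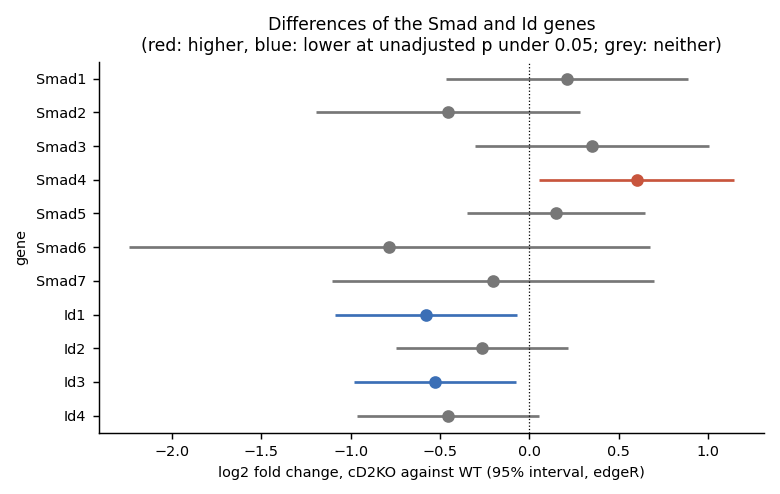
Log2 fold changes (cD2KO against WT, x axis) of the 10 genes and Id4 (y axis) with 95% intervals from edgeR's quasi-likelihood fit of 6 mice; red is higher, blue lower at an unadjusted p under 0.05. The intervals of Id1, Id3 and Smad4 leave out 0, and Smad6 has the widest interval, from -2.24 to 0.67.

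Per kilobase of exon, the Id genes were the most abundant of the 10. In WT the mean level was 156 CPM per kilobase for Id3, 119 for Id1 and 95.9 for Id2, followed by 33.8 for Smad4, 13.2 for Smad5, 3.75 for Smad1, 3.67 for Smad3, 2.77 for Smad7, 2.45 for Smad2 and 1.68 for Smad6. In cD2KO Id3 was again first, at 108 CPM per kilobase, with Id2 at 79.9 and Id1 at 79.5, and Smad4 at 51.2. In WT the ranges over mice overlapped between neighbours among the Id genes and from Smad1 to Smad2, and did not overlap between Id2 and Smad4, Smad4 and Smad5, Smad5 and Smad1, or Smad2 and Smad6. In cD2KO Id3 was above Id2 and Id1 in all mice, and the ranges of Id2 and Id1 overlapped. The order between genes depends on the scaling by length, because exon lengths differ, as between Id1 (1.16 kb) and Smad4 (3.71 kb). Across 11631 genes, Spearman's rho of exon length and level was 0.0763, a description. Whether counts in these libraries grow with exon length was not tested. Without that scaling, mean Smad4 in cD2KO was 190 CPM, beside 195 for Id2, 194 for Id3 and 92.2 for Id1. In WT mean Smad4 was 125 CPM, beside 234 for Id2, 279 for Id3 and 138 for Id1.

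The spread between mice differed from gene to gene. The coefficient of variation of Id1 was 31.3% in WT and 5.13% in cD2KO, that of Id3 23.0% and 6.07%, and that of Id2 29.9% and 8.98%. Smad3 (31.6% and 8.07%), Smad5 (29.7% and 11.8%) and Smad7 (39.7% and 20.1%) stood in the same order. For Smad4 the order was the other way, 17.5% in WT and 35.1% in cD2KO. Smad1 (12.1% and 34.0%), Smad2 (15.1% and 36.0%) and Smad6 (21.6% and 68.9%) went with Smad4. With 3 mice in a group these spreads are given as values and were not tested.

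The genes whose pattern over the 6 mice was most like Id3 were Ctsd, which encodes the lysosomal protease cathepsin D, and Snx14, a sorting nexin. The root mean square distance of their centred log2 CPM to that of Id3 was 0.0585 and 0.0640, where the median over all genes tested was 0.487. Ctsd was also nearest to Id1 (0.103), ahead of Phlda1 (0.109), and the distance between Id1 and Id3 was 0.106, with 0.0688% of genes closer to Id3. For Smad4 the nearest were Sesn2 (0.0611), a stress-induced sestrin, and Ilk (0.0911), the integrin-linked kinase, where the median was 0.573. Sesn2 was low, at 3.07, 4.43 and 3.81 CPM in WT and 3.62, 5.47 and 8.48 CPM in cD2KO. At 3 counts a gene had 0.768 to 1.36 CPM. Ctsd was measured at 265, 413 and 390 CPM in WT and 245, 278 and 256 CPM in cD2KO, with c124 again beside the cD2KO mice.

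Markers of other cell types stood in part in the same order. Of 16 endothelial markers tested, out of 20, 8 were lower in cD2KO and none higher at an unadjusted p under 0.05 in edgeR. This was 50% of them, beside 12% of all genes tested. Pecam1 was at 8.45, 18.1 and 15.6 CPM in WT and 1.81, 1.71 and 6.28 CPM in cD2KO, Cdh5 at 12.8, 19.6 and 28.0 CPM and at 4.08, 5.47 and 15.4 CPM. Tie1, Robo4 and Sox17 were at 0 in the library labelled fl125 and Cldn5 in fl126. As with Id1 and Id3, c124 was the WT mouse with the lowest sum of endothelial markers, 659 CPM, beside 815 and 958 CPM in c129 and c130. Within cD2KO the order differed. The endothelial sum was lowest in fl126, 497 CPM, the cD2KO mouse with the highest Id1 and Id3, and highest in fl128, 632 CPM.

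Immune markers were lower as well, with 6 of 20 tested, out of 22, past the threshold (30% beside 12% of all genes) and none higher. Ptprc was at 18.2, 69.4 and 24.6 CPM in WT and 4.08, 15.7 and 7.85 CPM in fl125, fl126 and fl128. The sum of immune markers was also lowest in c124 among the WT mice, 5549 CPM. Within cD2KO it was 264, 3169 and 3817 CPM in fl125, fl126 and fl128, where Id3 was at 184, 207 and 190 CPM. Cd79a was at 0 in all libraries, and Msr1 and Cx3cr1 were at 0 in the library labelled fl125. Of 10 fibroadipogenic markers tested, out of 12, 1 was higher and 2 lower at the same threshold (30% beside 12% of all genes). Fibroadipogenic markers summed to 3961 to 6373 CPM in WT and 2420 to 5327 CPM in cD2KO, with Pdgfra at 4.87 to 9.23 CPM and at 0.906 to 5.65 CPM. Its lowest cD2KO value lies below the 0.942 to 1.36 CPM that 3 counts give in the cD2KO libraries.

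Mural markers moved the other way, with 6 of 12 tested higher (50% beside 12% of all genes past the threshold), none lower and none at 0. Acta2 was at 3960, 1563 and 2450 CPM in WT and 4418, 5610 and 7893 CPM in cD2KO, and the sum was highest, 21651 CPM, in fl128, the mouse with the highest Smad4. Among the WT mice, however, c124 had the highest mural sum, 11764 CPM, and the lowest Smad4. Of 16 muscle stem cell markers, 5 were higher (31.25% beside the same 12%) and none lower, with sums of 2071 to 2779 CPM in WT and 2999 to 3951 CPM in cD2KO. Pax7 itself was at 408, 212 and 431 CPM in WT and 687, 452 and 314 CPM in cD2KO. Schwann cell markers summed to 5266 to 8213 CPM in WT and 7462 to 8033 CPM in cD2KO, and muscle fibre markers to 2131 to 4777 CPM and 3876 to 7304 CPM. The part of these cell types in the values of Id1, Id3 and Smad4 was not tested.

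**Figure D4:**
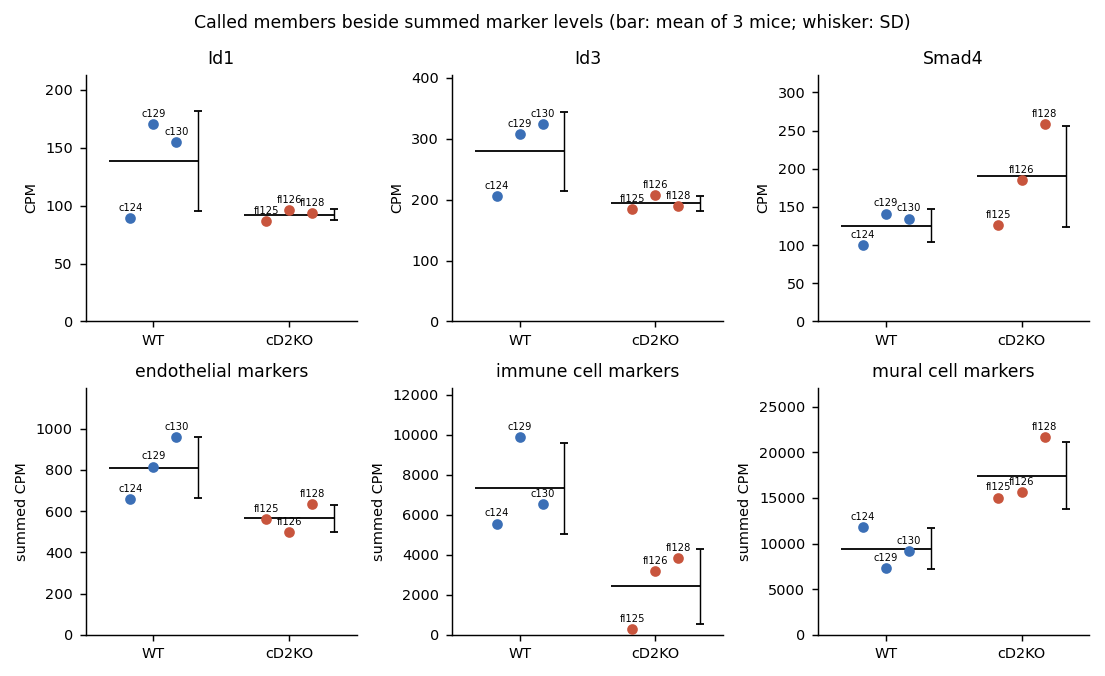
CPM of Id1, Id3 and Smad4 (top) and summed CPM of endothelial, immune and mural markers (bottom) in each mouse, with the mean of 3 mice (bar) and SD (whisker), on axes from 0. The sums do not overlap between genotypes, c124 is lowest in WT for endothelial and immune markers, and fl128 is highest for mural markers.

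Upstream of the Smads, 1 receptor and 3 ligand or inhibitor genes passed the unadjusted threshold, a share near the 12% of all genes. Of 9 BMP receptors and co-receptors tested, 1 was lower and none higher, with a median log2 fold change of 0.0088. It was Acvrl1 (ALK1), a BMP9 and BMP10 receptor best known from endothelium, at 19.2, 34.7 and 33.2 CPM in WT and 12.7, 14.4 and 18.2 CPM in cD2KO, a log2 fold change of -0.93 with adjusted p = 0.259 in edgeR. The groups were separated, with c124 again the lowest WT mouse, and without the library labelled fl125 the log2 fold change was -0.78 (adjusted p = 0.290 in edgeR). Among 17 of 26 ligands and extracellular inhibitors that were tested, 2 were higher and 1 lower, with a median of 0.17. In edgeR's fit Fstl3, a secreted inhibitor of activins, was higher by 0.59 on the log2 scale (adjusted p = 0.285), with means of 98.5 and 148 CPM, and Crim1, a membrane protein that binds BMPs, by 0.60 (adjusted p = 0.296), with means of 125 and 189 CPM. Bmper, a BMP-binding secreted regulator, fell by 1.40 on the log2 scale (adjusted p = 0.379), from 8.81 to 3.33 CPM. When the library labelled fl125 was left out, log2 fold changes were 0.65 for Fstl3 (adjusted p = 0.155), 0.78 for Crim1 (adjusted p = 0.0703) and -1.25 for Bmper (adjusted p = 0.373), which was then not past the threshold.

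Of 37 Smad cofactors and regulators tested, 2 were higher and 2 lower, with a median log2 fold change of -0.14. That is 10.8% past the threshold, near the 12% of all genes tested. They included a pair of related ubiquitin ligases that act on Smads, Wwp1 and Wwp2, which stood in opposite directions. Wwp1 was at 47.4, 106 and 61.6 CPM in WT and 26.7, 31.1 and 48.4 CPM in cD2KO, a log2 fold change of -1.01 with adjusted p = 0.202 in edgeR. Wwp2 was at 50.2, 62.4 and 43.6 CPM in WT and 76.1, 97.5 and 102.7 CPM in cD2KO, a log2 fold change of 0.83 with adjusted p = 0.130 in edgeR, and separated the groups.

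The ratio of Wwp1 to Wwp2 counts was 0.944, 1.70 and 1.41 in WT and 0.351, 0.319 and 0.471 in cD2KO. It too was chosen after the values were seen and has no test. It divides a gene called lower by a gene called higher, so a gap between the groups adds nothing to those calls. Wwp1 overlaps Gm12353 and Wwp2 hosts Mir140 in the annotation, and of the other pathway genes named Acvrl1, Fstl3, Crim1, Junb and Tagln overlap annotated neighbours, so their counts may be shared. Trim33, a ligase that binds Smad2, Smad3 and Smad4, had a log2 fold change of -0.75 (adjusted p = 0.340 in edgeR), with means of 30.6 and 18.2 CPM, and Tab1, an activator of the TGF-β-activated kinase, was higher by 0.66 (adjusted p = 0.400), with means of 21.4 and 33.7 CPM. Both separated the groups. For these and the other called genes, separation rests on the same values as the call and is no added support. Of the 37 cofactors and regulators tested, 6 separated the groups with cD2KO higher and 5 with cD2KO lower. Among all genes tested the shares were 8.05% and 10%. Without the library labelled fl125, the log2 fold change of Tab1 was again 0.66, though no longer past the threshold (adjusted p = 0.345 in edgeR). In the same fit it was -0.80 for Wwp1, 0.98 for Wwp2 and -0.81 for Trim33, all past the threshold. Without c129, that of Wwp1 was -0.59 and not past it.

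Downstream, other target genes were found in both directions. Of 11 other BMP-Smad targets tested, out of 23, 2 were higher and 2 lower, with a median log2 fold change of -0.16. This share of 36.4% stands beside 12% of all genes tested, and it counts Cdh5, which also stands in the endothelial marker list. Msx1, a homeobox factor, was at 28.9, 29.2 and 28.4 CPM in WT and 33.1, 58.8 and 60.6 CPM in cD2KO, a log2 fold change of 0.82 with adjusted p = 0.212 in edgeR. Tbx2, a T-box repressor, was higher by 0.74 (adjusted p = 0.156), with means of 82.2 and 138 CPM, and both genes separated the groups. Without the library labelled fl125, Msx1 had a log2 fold change of 1.09 with adjusted p = 0.0304 in edgeR, and Tbx2 one of 0.82 with adjusted p = 0.0640. In that fit 2.49% of the genes tested had an adjusted p under 0.05. Junb, a subunit of AP-1, and Cdh5, the endothelial cadherin, had log2 fold changes of -0.62 (adjusted p = 0.396) and -1.24 (adjusted p = 0.344) in edgeR, and without the library labelled fl125 these were -0.59 and -0.89, not past the threshold.

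Of 22 TGF-β-Smad3 targets tested, 2 were higher and 3 lower (22.7% beside 12% of all genes), with a median of -0.27. The lower ones were matrix genes that fibroblast-like cells also express. Tgfbi, a secreted matrix protein, was at 261, 396 and 390 CPM in WT and 70.2, 184 and 192 CPM in cD2KO (log2 fold change -1.22, adjusted p = 0.175 in edgeR), and log2 fold changes were -0.85 for Postn, periostin (adjusted p = 0.126), and -0.84 for Col1a2, a chain of type I collagen (adjusted p = 0.214). The higher ones, Acta2 and Tagln, are smooth muscle genes that also stand in the mural marker list. Tagln was at 107, 117 and 120 CPM in WT and 245, 186 and 231 CPM in cD2KO, a log2 fold change of 0.95 with adjusted p = 0.0885 in edgeR, and Acta2 had a log2 fold change of 1.17. All 5 kept an unadjusted p under 0.05 without the library labelled fl125, with log2 fold changes of -0.85 for Tgfbi, -0.76 for Postn, -0.63 for Col1a2, 1.38 for Acta2 and 0.91 for Tagln.

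Of 16 Id partner genes tested, which encode bHLH and Ets factors that Id proteins bind or E-protein partners, 3 were higher and none lower, with a median of -0.047. The 3 were 18.75% of those tested, beside 12% of all genes, and included Myf5, which also stands in the muscle stem cell marker list. Myf5, a myogenic factor of muscle stem cells, was at 29.2, 35.8 and 28.7 CPM in WT and 59.3, 47.2 and 34.5 CPM in cD2KO, a log2 fold change of 0.59 with adjusted p = 0.399 in edgeR. Tcf15, a bHLH factor of mesoderm, was higher by 0.72 (adjusted p = 0.191), with means of 121 and 201 CPM, and Ets2 by 0.52 (adjusted p = 0.332), with means of 121 and 174 CPM. Tcf15 and Ets2 separated the groups. With the library labelled fl125 left out, log2 fold changes were 0.61 for Tcf15 (adjusted p = 0.171), 0.70 for Ets2 (adjusted p = 0.0662) and 0.43 for Myf5 (adjusted p = 0.487), which was then not past the threshold.

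**Figure D5:**
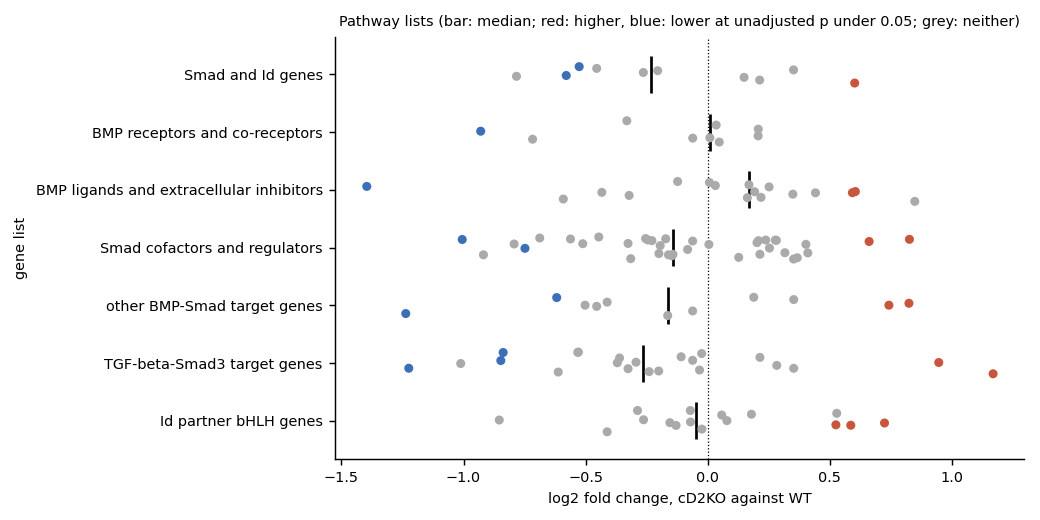
Log2 fold change (cD2KO against WT, x axis) of each gene tested in 7 lists of the pathway (y axis), with the median as a bar; red is higher and blue lower at an unadjusted p under 0.05. Medians lie between -0.27 and 0.17, and each list holds genes on both sides of 0.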

How the data were processed

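The authors extracted RNA from sorted qMuSCs with the RNeasy Mini Kit, and the deposited values are raw counts of reads per gene, as whole numbers without normalization, a column per mouse. The submitters' processing notes name STAR 2.6.0a, HTSeq 0.9.1, bcl2fastq and mm10; the Methods give mm10 together with a human assembly name. Which annotation was counted, whether strand was used and how PCR duplicates were treated is not given in the sources used here. Columns of other samples numbered 0. Intervals for low counts cover counting error and the spread between mice, which were separate animals.

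Symbols and coordinates came from GENCODE M21 (GRCm38), in which 31011 of 31053 identifiers were found, and promoter windows from RefSeq. The expression minimum, a mean above 10 after DESeq2 normalization, left 11633 genes. TMM-scaled counts of the 6 mice entered edgeR 4.0.16 in R 4.3.3 (robust quasi-likelihood test, no covariate), with Benjamini-Hochberg adjustment over all genes tested. A gene was called at an unadjusted p under 0.05. Means are CPM on TMM-scaled library sizes. The procedure was tested on simulated data.

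Named were the 10 genes, Smad9, Id4 and Dio2; of each pathway list, at most 5 genes called in each direction; 6 defining markers; and the 2 nearest genes of the 3 members with the smallest p, by centred log2 CPM (prior count 2). Markers at 0 were named after their values were seen. Members and lists were chosen with earlier results of these data known. The lists were written by hand; Hjv was not matched, and Hgs was left out because its symbol has 2 identifiers. DESeq2 1.42.0, limma voom 3.58.1, other scalings and filters, thinned counts and leaving out each mouse were alternatives.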

Additional observations from a re-analysis of the deposited data

How the results depend on the processing

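Id3 and Smad4 kept their direction and an unadjusted p under 0.05 under each alternative that kept all 6 mice, and Id1 under each but limma voom (adjusted p = 0.434), which left 1 Smad or Id gene lower. Over all alternatives the adjusted p ranged from 0.124 to 0.775 for Id1, 0.180 to 0.696 for Id3 and 0.0443 to 0.751 for Smad4. Leaving out each mouse in turn gave 0 to 1 Smad or Id genes higher and 0 to 2 lower, and 402 to 933 and 399 to 874 among all genes; without c129, c130, fl125, fl126 or fl128 none was lower, and without c124, c130, fl126 or fl128 none was higher. At an adjusted p under 0.05 or 0.1 no Smad or Id gene was called in either direction by edgeR, where 1 was higher and 2 lower at the unadjusted threshold. DESeq2 and limma voom also called none of the 10 at an adjusted p under 0.05, with 282 and 0 calls among all genes beside 1 in edgeR; no minimum gave 510 and leaving out fl125 gave 293. Among all genes 621 were higher and 770 lower; with no minimum 939 were higher, with a minimum mean of 50 505 were lower, at an adjusted p under 0.05 1 was higher and 0 lower, and under 0.1 33 were higher and 57 lower. Signs turned for Smad5 and Smad7 without c129 (WT replicate 2) and for Id2 without c130 (WT replicate 3), and over the fits without a mouse their log2 fold changes ranged from -0.024 to 0.41, from -0.48 to 0.12 and from -0.39 to 0.031. The cause was not tested. A minimum mean of 50 gave no value for Smad6 and Smad7, and thinning to the smallest library none for Smad6. No paired analysis was possible because the labels name each mouse but give nothing that pairs WT with cD2KO mice. The replicate numbers used here only follow the order of deposition.
The same alternatives for the pathway genes were added after seeing the data and turned no direction. Of the 20 genes called, 8 (Acta2, Msx1, Postn, Tagln, Tbx2, Tcf15, Tgfbi and Wwp2) kept an unadjusted p under 0.05 in all, and 12 lost it in at least 1, mostly without a mouse: Acvrl1 without c129 or c130, Crim1 without c124 or fl128, Fstl3 without c124, c129 or fl128, Ets2 without c124, fl126 or fl128, Trim33 without c130 or fl126 or with thinned counts, Col1a2 without c130, Wwp1 without c129, and Bmper, Cdh5, Junb, Myf5 and Tab1 in 4 to 7 alternatives.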
